A study of Mus musculus with 7 samples.

Results

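Bhlhe40, Itpr1 and Bhlhe41 were described here by the accessible chromatin in and around them in bone marrow LSK cells (Lineage- c-Kit+ Sca-1+), the marrow fraction in which blood stem cells and multipotent progenitors are found. A peak was taken when its summit lay in the body of 1 of the 3 genes (GENCODE annotation, mm10) or within 100 kb of it, and summits of different libraries within 150 bp of each other were joined into 1 site. This gave 167 sites of 205192 over the whole genome. The 3 genes were selected on measured values of these data, namely the fold enrichment of WTAkita against Ctrl at a site in an intron of Itpr1. Values that compare the groups at these sites are therefore a description, and no p-value is read for them.

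The ATAC-Seq data, in which open DNA is cut and tagged by a transposase, held 4 libraries of WTAkita offspring and 3 of Ctrl offspring, each from 50000 sorted LSK cells. WTAkita mice were wild-type offspring of diabetic Ins2Akita/+ dams and did not carry the Akita mutation themselves, and Ctrl mice were wild-type offspring of normal pregnancies bred under a similar scheme. All were of the C57/BL6 strain, were kept on a regular diet and were analysed as adults at 8 to 12 weeks. Both Ins2Akita/+ females and their wild-type littermates had received a high-fat diet before mating with C57BL/6 males. Cells were sorted from pools of bone marrow, and the number of mice per library was not found in the sources used here, so errors measure the spread between libraries. In such bulk samples, fewer cells of a type with an open site and a less open site in each cell cannot be told apart.

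BHLHE40 and BHLHE41 (also known as DEC1 and DEC2) are basic helix-loop-helix repressors of the Orange type that bind E-box sequences, repress the activators of the circadian clock loop and are known in hematopoietic and immune cells as regulators of differentiation and cytokine genes. ITPR1 is a receptor for inositol trisphosphate in the endoplasmic reticulum, and it releases stored calcium into the cytosol after phospholipase C signalling. Itpr1 and Bhlhe40 are neighbours on the same strand of mouse chromosome 6, and Bhlhe41 lies far away on that chromosome, on the opposite strand.

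Itpr1 (ENSMUSG00000030102.11) spans chr6:108213096-108551109 on the plus strand of mm10, Bhlhe40 (ENSMUSG00000030103.11) spans chr6:108660629-108666925 on the plus strand, and Bhlhe41 (ENSMUSG00000030256.11) spans chr6:145858243-145865558 on the minus strand. The antisense gene 0610040F04Rik overlaps the start of Bhlhe40 and runs back towards Itpr1. The sequences of the strongest sites are printed from the GRCm38.p6 reference genome (the mm10 build), plus strand unless stated, with 100 bases on either side of the summit. Capitals mark matches, on either strand, to any of 6 motifs: CACGTG (the E-box), AGATAA (of GATA factors), TGTGGT (of RUNX factors), GAGGAAG (of ETS factors), TGANTCA (of AP-1) and TTGCNNCAA (of C/EBP). A match describes letters and is not a binding site. The first 3 are the sites with the highest mean fold enrichment around each gene, which are called the strongest here. The last, chosen after its values and letters were seen, is the closest site called in all 7 libraries on the downstream side of Bhlhe41.
Strongest site around Itpr1, chr6:108503715-108503915: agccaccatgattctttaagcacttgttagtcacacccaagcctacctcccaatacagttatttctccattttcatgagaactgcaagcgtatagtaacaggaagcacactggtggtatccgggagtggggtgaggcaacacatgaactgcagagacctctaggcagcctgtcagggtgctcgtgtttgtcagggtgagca
Strongest site around Bhlhe40, chr6:108630754-108630954: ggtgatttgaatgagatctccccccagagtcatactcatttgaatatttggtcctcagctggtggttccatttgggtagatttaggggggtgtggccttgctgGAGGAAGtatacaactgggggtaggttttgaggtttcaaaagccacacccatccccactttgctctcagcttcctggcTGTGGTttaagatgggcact
Strongest site around Bhlhe41, chr6:145830163-145830363: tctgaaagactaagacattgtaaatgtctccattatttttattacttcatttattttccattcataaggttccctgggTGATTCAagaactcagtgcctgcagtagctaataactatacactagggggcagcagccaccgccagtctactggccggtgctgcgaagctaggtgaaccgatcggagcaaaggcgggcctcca
Site downstream of Bhlhe41, chr6:145855771-145855971: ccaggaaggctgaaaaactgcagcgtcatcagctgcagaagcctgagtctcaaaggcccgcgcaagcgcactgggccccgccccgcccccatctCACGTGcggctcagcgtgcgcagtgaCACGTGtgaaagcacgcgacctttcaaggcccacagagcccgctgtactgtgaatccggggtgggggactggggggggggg

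The strongest site around Bhlhe40 held 1 ETS and 1 RUNX match, the strongest site around Bhlhe41 held 1 AP-1 match, and the strongest site around Itpr1 held none of the 6 motifs. The site downstream of Bhlhe41 held 2 E-boxes, at positions 95 to 100 and 121 to 126 of the printed run. Of the 3 genes, Bhlhe41 had an entry in the RefSeq promoter table used here (GRCm38.p6), and its bases before the first GENCODE start are shown on the minus strand because they hold 1 E-box, the sequence that its own protein binds.
Bhlhe41 promoter, chr6:145865559-145865670: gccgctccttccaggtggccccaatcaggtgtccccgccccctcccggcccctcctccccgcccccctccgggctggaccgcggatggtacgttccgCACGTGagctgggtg

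Of the 167 sites, 80 (47.9%) were called in all 7 libraries, against 49.4% of all sites, 49 were called in 2 to 6 libraries and 38 in 1 library. The 41 sites around Bhlhe40 included 24 called in all 7, the 83 around Itpr1 included 41, and the 54 around Bhlhe41 included 22. The windows of Bhlhe40 and Itpr1 overlap, so some sites belong to both. No site was called in all libraries of 1 group and in none of the other. Such sites were rare over the whole genome too. Of 205192 sites, 258 were called in all WTAkita and no Ctrl libraries, and 307 in all Ctrl and no WTAkita libraries. In each library, 108, 110, 113 and 112 peaks fell in the windows in WTAkita, against 107, 112 and 118 in Ctrl. These counts overlapped between the groups. Sites seen in 1 library had a median fold enrichment of 2.68 and a highest value of 9.86. The median was 8.99 for the 80 sites called in all 7 and 8.50 for all sites called in all 7. In intron 12 of Itpr1, a site called in WTAkita replicate 3 alone (7.77) lay beside one called in 6 libraries, beyond the 150 bp limit for joining.

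Fold enrichment is the authors' value of a peak: the number of extended tags over the summit (the summit pileup) divided by that library's local background, after adding 1 to both. Libraries differed in this value as a whole. The median over all peaks was 5.25, 5.78, 6.32 and 6.59 in WTAkita, against 5.79, 6.48 and 6.47 in Ctrl, and the estimated depth was 49300000, 53100000, 40500000 and 44800000 tags in WTAkita, against 47800000, 51900000 and 37600000 in Ctrl. WTAkita replicate 1 was the lowest of the 7 libraries at 44 of the 80 sites (55.0%), against 54.2% of all sites. After quantile normalization of the log2 values it was the lowest at 15 of the 80 (18.8%), against 17.95% of all sites. Differences between the groups are given on this normalized log2 scale. The promoters of 9 of 10 LSK and stem cell markers, among them Kit, Ly6a, Flt3 and Cd34, were called in all 7 libraries. Procr, which marks stem cells, was called in 4. Of 16 markers of other cells, 6 were called in all 7, among them Cd4, Itgam, Adgre1 and Cdh5, and Cd8a, Ms4a1 and Slc4a1 were called in none.

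The promoters of the 3 genes carried peaks of very unlike strength. At the Itpr1 promoter (summit at chr6:108213016, 80 bp before the start), the fold enrichment was 19.0, 17.5, 19.8 and 20.9 in WTAkita, against 19.3, 19.7 and 19.5 in Ctrl. The Ctrl values lay within the WTAkita range, and the normalized difference was 0.05 ± 0.09 (SE). At the Bhlhe40 promoter (summit at chr6:108660424, 205 bp before the start and in an intron of 0610040F04Rik), it was 8.53, 7.87, 8.86 and 9.39 in WTAkita, against 8.34, 8.36 and 9.25 in Ctrl. These groups overlapped as well, with a difference of 0.07 ± 0.14 (SE). At the Bhlhe41 promoter (summit at chr6:145865412, in an untranslated exon and 60 bp from a start), it was 3.598, 3.21, 3.49 and 3.35 in WTAkita, against 2.91 and 3.97 in Ctrl replicates 1 and 2. The difference, fitted over sites called in at least 5 libraries, was 0.04 ± 0.20 (SE). In Ctrl replicate 3 the Bhlhe41 promoter lay inside a peak of 1651 bp whose strongest summit was elsewhere, and its own summit there, with a fold enrichment of 3.28, was left out because each peak was counted once.

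**Figure D1:**
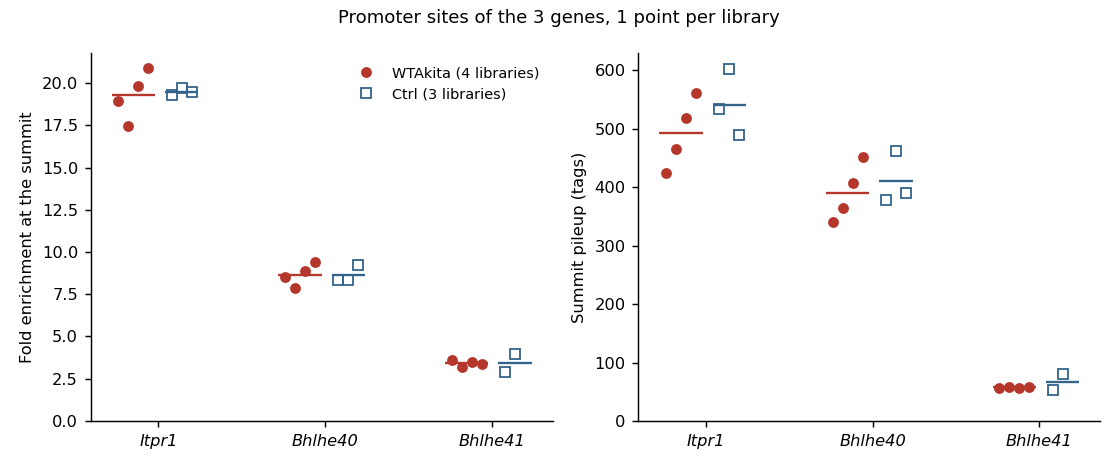
Promoter sites of Itpr1, Bhlhe40 and Bhlhe41 in each library: fold enrichment at the summit on the left and summit pileup in tags on the right, with filled circles for the 4 WTAkita libraries, open squares for the 3 Ctrl libraries and horizontal lines for group means. Bhlhe41 has 2 Ctrl points, and Bhlhe40 sits at 7.87 to 9.39 in fold enrichment, far below Itpr1, but at 341 to 462 tags in pileup, near the 425 to 602 tags of Itpr1.

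Within libraries, the order was Itpr1, Bhlhe40 and Bhlhe41. This comparison of sites within a library is not one that chose the genes. It was tested by flipping the sign of the difference within each library (exact permutation test, two-sided, adjusted over 3 pairs). The test asks whether an order repeats between libraries, and other promoter pairs were not tested. The Bhlhe40 promoter was 2.51-fold above the Bhlhe41 promoter (log2 ratio 1.33 ± 0.16, SD, n = 6 libraries, exact permutation p = 0.03125, adjusted p = 0.03125), in 6 of 6 libraries. The Bhlhe40 promoter was below the Itpr1 promoter by a log2 ratio of -1.16 ± 0.05 (SD, n = 7, exact permutation p = 0.015625, adjusted p = 0.03125), in 7 of 7 libraries. The Itpr1 promoter was 5.67-fold above the Bhlhe41 promoter (log2 ratio 2.50 ± 0.16, SD, n = 6, exact permutation p = 0.03125, adjusted p = 0.03125), in 6 of 6 libraries. These are the smallest p-values that 6 or 7 libraries can give, and with any library other than Ctrl replicate 3 left out the adjusted p was 0.0625 for all 3 pairs. The sizes depended on the measure, in alternatives chosen after seeing the data. By summit pileup the log2 ratios were 2.73 ± 0.17 (6.65-fold) for Bhlhe40 over Bhlhe41 and 3.10 ± 0.19 (8.58-fold) for Itpr1 over Bhlhe41 (SD, n = 6). By the strongest summit within 1000 bp of the first start, which gave 7 libraries for each pair, these were 0.86 ± 0.15 (1.81-fold) and 2.02 ± 0.15 (4.06-fold), and that of Bhlhe40 over Itpr1 was -1.16 ± 0.05 as before.

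The gap between Bhlhe40 and Itpr1 depended on the local background. Bhlhe40 had a summit pileup of 391 ± 49 tags (SD, n = 4) in WTAkita and 410 ± 45 (SD, n = 3) in Ctrl, and Itpr1 had 492 ± 60 in WTAkita and 542 ± 57 in Ctrl. The background at Bhlhe40 was 44.2 ± 3.5 tags in WTAkita and 46.7 ± 6.8 in Ctrl, against 24.6 ± 2.1 and 26.8 ± 2.7 at Itpr1. By pileup, the log2 ratio of Bhlhe40 over Itpr1 was -0.36 ± 0.06 (SD, n = 7, exact permutation p = 0.015625), in 7 of 7 libraries. Among all sites called in all 7 libraries, the Bhlhe40 promoter stood at percentile 51.8 by fold enrichment and 96.8 by depth-scaled pileup (per 1000000 tags), and the Itpr1 promoter at 90.5 and 98.9. The Bhlhe40 peak was 1838 to 1894 bp long and was split into 2 to 4 summits within 1000 bp of the first start, whose fold enrichment ran from 1.86 to 9.39. Where each summit counted on its own and, a choice made after seeing the data, the closest site called in at least 5 libraries was taken, Bhlhe40 had a fold enrichment of 1.86 to 2.34 in 5 libraries. The order of Bhlhe40 and Bhlhe41 then turned (log2 ratio -0.69, exact permutation p = 0.0625, the smallest that 5 libraries allow).

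Among sites called in all 7 libraries, a mean fold enrichment above 15 was found at 3 of 6 upstream of Itpr1, 9 of 27 in its body, 1 of 9 between it and Bhlhe40 and 3 of 15 downstream of Bhlhe40, against 21.6% of all sites. Of the 27 sites in the body of Itpr1 called in all 7 libraries, all were intronic in the longest transcript, which has 62 exons. The 11 in introns 2 to 4, which lie 1.56 to 118 kb from the start, had a median fold enrichment of 5.99, and 1 of them exceeded 15. The 16 in introns 32 to 61, which lie 188 to 337 kb from the start, had a median of 14.4, and 8 exceeded 15. The strongest site by fold enrichment, in intron 53, had 21.2, 23.995, 27.9 and 28.3 in WTAkita, against 27.9, 29.0 and 22.7 in Ctrl. The groups overlapped there, with a difference of 0.00 ± 0.09 (SE). By depth-scaled pileup this site stood at percentile 85.6, below a site in intron 60 (97.1) and the Itpr1 promoter (98.9). In fold enrichment, sites in introns 57 and 38 followed it. They had 23.95 ± 3.1 in WTAkita and 24.4 ± 1.7 in Ctrl, and 22.1 ± 3.2 in WTAkita and 25.4 ± 3.1 in Ctrl. An intergenic site upstream of Itpr1, 15.8 kb from its start, had 22.5 ± 2.1 in WTAkita and 23.5 ± 1.7 in Ctrl (SD, n = 4 and 3 throughout).

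**Figure D2:**
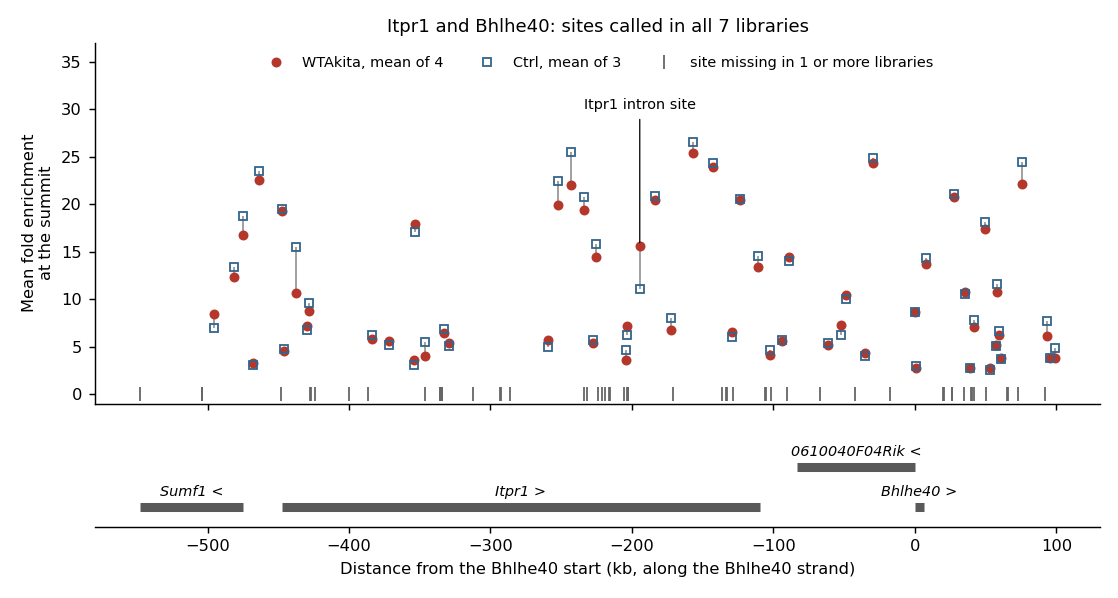
Sites around Itpr1 and Bhlhe40 by distance from the Bhlhe40 start in kb, with mean fold enrichment in WTAkita (filled circles, 4 libraries) and Ctrl (open squares, 3 libraries) joined by a line, ticks at 0 for sites missing in 1 or more libraries, and gene bodies beneath with arrowheads for their strand. The group means of most sites lie close to each other. The Itpr1 intron site has 15.6 in WTAkita and 11.1 in Ctrl, and a site in intron 2 of Itpr1 has 10.7 in WTAkita and 15.5 in Ctrl.

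By fold enrichment, the strongest site between the 2 genes lay 29.8 kb before the Bhlhe40 start, in an intron of 0610040F04Rik. Its fold enrichment was 19.7, 21.8, 26.3 and 29.6 in WTAkita, against 24.6, 25.2 and 24.9 in Ctrl. The WTAkita values were spread widely around the narrow Ctrl values in fold enrichment. On the normalized log2 scale the SD was 0.10 in WTAkita and 0.08 in Ctrl, and the difference was 0.02 ± 0.07 (SE). By depth-scaled pileup this site stood at percentile 75.9, against 96.8 for the Bhlhe40 promoter. Downstream of Bhlhe40, intergenic sites 75.7, 27.8 and 49.5 kb from its start had 22.1 ± 3.7, 20.8 ± 3.5 and 17.4 ± 2.6 in WTAkita, against 24.4 ± 3.9, 21.0 ± 2.0 and 18.1 ± 2.4 in Ctrl, all within the spread between libraries. The body of Bhlhe40 itself held 1 site called in all 7 libraries, with a mean fold enrichment of 2.88. That site stood at percentile 2.13 by fold enrichment, but at 74.997 by depth-scaled pileup.

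Around Bhlhe41, sites in the gene itself had low fold enrichment, and its flanks held sites with high values. Both sites in its body that were called in all 7 libraries had mean fold enrichments of 3.65 and 4.21. These stood at percentiles 7.78 and 13.8 by fold enrichment, but at 50.3 and 53.2 by depth-scaled pileup. A site in the intergenic space towards Rassf8, which encodes a Ras-association domain protein, had the highest mean fold enrichment around any of the 3 genes. It lay 35.3 kb from the Bhlhe41 start and had 19.6, 23.7, 30.9 and 29.8 in WTAkita, against 23.5, 32.6 and 28.2 in Ctrl. The groups overlapped, with a difference of -0.05 ± 0.09 (SE). By depth-scaled pileup this site stood at percentile 83.6. The site downstream of Bhlhe41 that held 2 E-boxes, 2.37 kb beyond the end of the gene, had a fold enrichment of 12.9, 13.4, 14.3 and 12.7 in WTAkita, against 12.3, 13.7 and 13.4 in Ctrl. Its difference was 0.09 ± 0.11 (SE). The promoter site of Sspn, which encodes sarcospan of the dystrophin complex, had 9.64 ± 3.1 in WTAkita and 9.97 ± 1.6 in Ctrl, and that of Sumf1, the sulfatase-modifying enzyme gene beside Itpr1, had 16.7 ± 2.7 in WTAkita and 18.7 ± 1.3 in Ctrl.

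**Figure D3:**
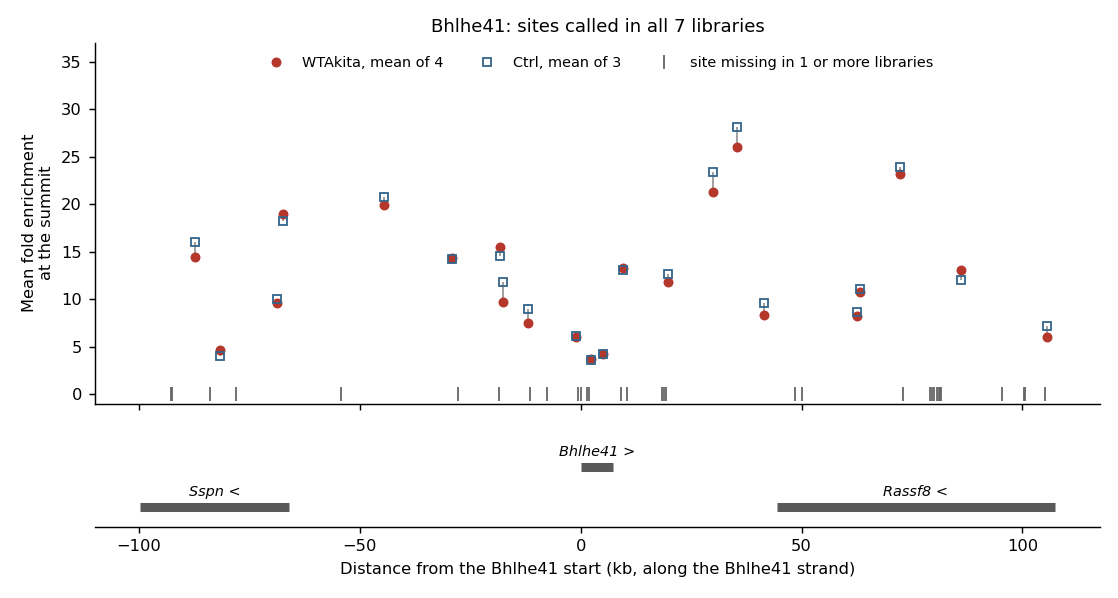
Sites around Bhlhe41 by distance from its start in kb along its strand, with mean fold enrichment in WTAkita (filled circles, 4 libraries) and Ctrl (open squares, 3 libraries), ticks at 0 for sites missing in 1 or more libraries, and gene bodies beneath. The sites in the gene stay below 5, and the strongest site, 35.3 kb downstream of the start, has 26.0 in WTAkita and 28.1 in Ctrl.

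The Itpr1 intron site lay in intron 44, 253 kb from the start. Its fold enrichment was 13.3, 12.9, 16.3 and 19.8 in WTAkita, against 9.31, 10.8 and 13.2 in Ctrl. The mean was 15.6 ± 3.2 (SD, n = 4) in WTAkita and 11.1 ± 2.0 (SD, n = 3) in Ctrl, and the site ranked 9 of 27 in the body of Itpr1 in WTAkita and 12 in Ctrl. WTAkita replicate 2 lay below Ctrl replicate 3, so the deposited values overlapped between the groups. On the normalized log2 scale the values were 4.001, 3.81, 3.91 and 4.16 in WTAkita, against 3.32, 3.30 and 3.63 in Ctrl, and did not overlap. The difference was 0.55 ± 0.12 (SE), and it was 0.49 to 0.66 with 1 library left out. The summit pileup was 70, 67, 68 and 96 tags in WTAkita, against 44, 55 and 52 in Ctrl, which did not overlap either, though the 95% Poisson intervals of single libraries, which cover counting error only, did (54.6 to 88.4 in WTAkita replicate 1 and 41.4 to 71.6 in Ctrl replicate 2). Scaled to 1000000 tags it was 1.42, 1.26, 1.68 and 2.14 in WTAkita, against 0.92, 1.06 and 1.38 in Ctrl, and the groups overlapped again. The local background overlapped between the groups, at 3.94 ± 0.50 tags in WTAkita and 3.67 ± 0.59 in Ctrl.

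**Figure D4:**
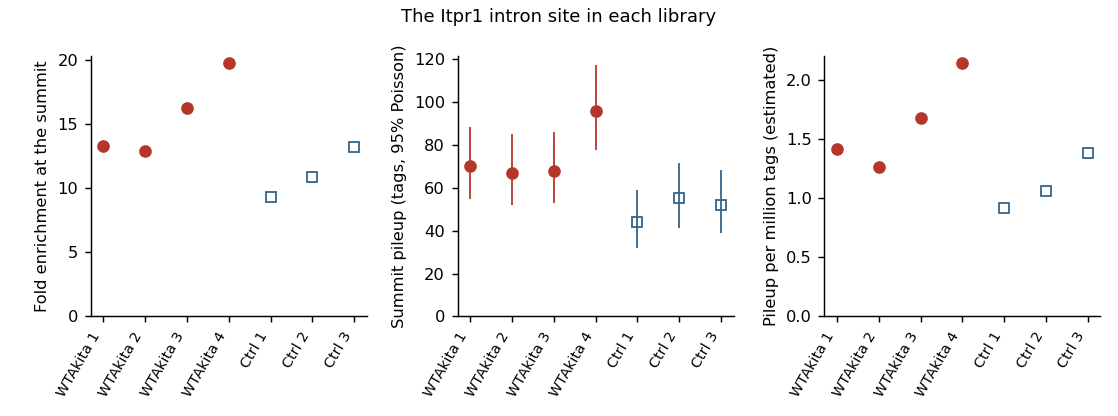
The Itpr1 intron site in each library: fold enrichment, summit pileup in tags with 95% Poisson intervals, and pileup per 1000000 estimated tags, with filled circles for WTAkita and open squares for Ctrl. Ctrl replicate 3 reaches into the WTAkita range in the first and the last panel, and the 67 to 96 tags of WTAkita lie above the 44 to 55 of Ctrl in the middle one.

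Over all 101457 sites called in 7 libraries, 0 (0.0%) had an adjusted p under 0.05 for WTAkita against Ctrl (limma, Benjamini-Hochberg), while the unadjusted p was under 0.05 with a higher value in WTAkita at 1765 (1.74%) and with a lower value at 2118 (2.09%). Of the 80 sites of the 3 genes, 0 passed the adjusted threshold, and at the unadjusted one 1 (1.25%) stood above Ctrl and 2 (2.5%) below. Since the genes were chosen with this contrast in view, nothing is read from these counts. The groups did not overlap, on the normalized scale, at 1 site higher and 2 sites lower in WTAkita, against 2.45% and 2.24% of all sites. Of the 80 differences, 43 were above 0 and 37 below, with a median of 0.01, and the median over all sites was 0.01 as well. By depth-scaled summit pileup, a scale chosen after seeing the data, 18 of the 80 (22.5%) were above 0, against 21.4% of all sites. The count of 3 sites at the unadjusted threshold was 7 without Ctrl replicate 2 (8.54% of the sites fitted, against 3.44% of all sites). Without Ctrl replicate 1 or 3 it was 5 (6.25% and 6.17%), where 4.73% and 3.46% of all sites passed. Without WTAkita replicate 1, 3 or 4 it was 5 as well (6.25%, 6.17% and 6.02%), where 3.78%, 4.35% and 4.5% of all sites passed. Without WTAkita replicate 2 it stayed at 3 (3.75%, against 3.63% of all sites). With summits matched within 75 bp it was 2 (2.6%, against 3.76%), and within 300 bp it was 4 (4.71%, against 3.87%).

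The sites that lay lower in WTAkita were also in Itpr1 and near Bhlhe41. In intron 2 of Itpr1, 9.97 kb from the start, the fold enrichment was 7.26, 7.60, 16.0 and 11.8 in WTAkita, against 16.1, 17.2 and 13.2 in Ctrl. WTAkita replicate 3 lay among the Ctrl values, and the difference was -0.53 ± 0.18 (SE). In intron 4, 101.03 kb from the start, it was 3.23, 3.42, 4.004 and 5.23 in WTAkita, against 4.97, 6.0 and 5.48 in Ctrl, with a difference of -0.45 ± 0.16 (SE). These groups were apart on the normalized scale and overlapped in fold enrichment. The other site without overlap on that scale lay 30.033 kb from the Bhlhe41 start, with 21.3 ± 2.9 in WTAkita and 23.3 ± 0.7 in Ctrl and a difference of -0.07 ± 0.07 (SE). One site, 17.6 kb from the Bhlhe41 start on the Sspn side, had a fold enrichment of 9.48, 8.79, 9.19 and 11.2 in WTAkita, against 11.4, 12.3 and 11.6 in Ctrl. It was the 1 site of the 80 (1.25%) whose groups did not overlap in deposited fold enrichment, lower in WTAkita, against 1.94% of all sites, and 0 of the 80 were apart with a higher value, against 0.685% of all sites. Its groups were apart in depth-scaled pileup too, as at 1.46% of all sites in that direction and 0.268% in the other, and overlapped on the normalized scale, with a difference of -0.21 ± 0.13 (SE). Other wide differences were 0.31 ± 0.20 (SE) in intron 32, 0.29 ± 0.17 in intron 4 and -0.36 ± 0.19 in intron 44 of Itpr1, -0.36 ± 0.18 downstream of Bhlhe40, 0.25 ± 0.19 in 0610040F04Rik, -0.24 ± 0.16 on the Sspn side of Bhlhe41 and 0.21 ± 0.17 in Rassf8, with groups that overlapped.

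**Figure D5:**
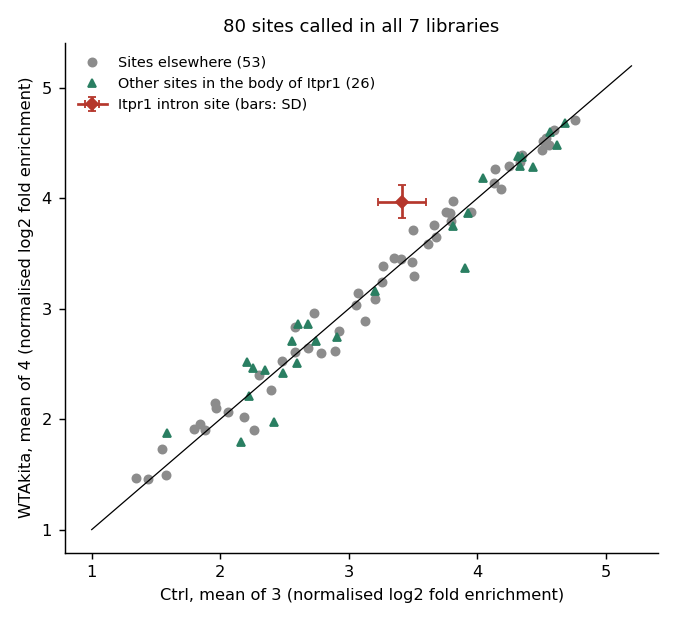
Normalised log2 fold enrichment of the 80 sites called in all 7 libraries, with the mean of 4 WTAkita libraries on the vertical axis and of 3 Ctrl libraries on the horizontal axis, and the line of equal values. The Itpr1 intron site, with SD bars, sits 0.55 above the line, the site in intron 2 of Itpr1 sits 0.53 below it, and most others lie close to it.

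At the edges of the windows, the values of the closest sites called in all 7 libraries were as follows. The last site inside the window beyond Bhlhe40 had 3.81 ± 0.93 in WTAkita and 4.89 ± 0.54 in Ctrl, and the next one outside had 26.7 ± 6.1 in WTAkita and 30.04 ± 2.3 in Ctrl. On the Sumf1 side of Itpr1 the values were 8.41 ± 4.3 in WTAkita and 6.97 ± 1.7 in Ctrl inside, and 29.6 ± 4.8 in WTAkita and 32.3 ± 2.6 in Ctrl outside. At these 2 edges, the closest such site outside thus had a higher fold enrichment than the closest one inside. On the Sumf1 side the inside site lay 51980 bp from the edge and the outside one 14465 bp. For Bhlhe41, the values on the Rassf8 side were 5.98 ± 1.1 in WTAkita and 7.13 ± 1.1 in Ctrl inside, and 13.3 ± 1.2 in WTAkita and 13.7 ± 1.0 in Ctrl outside. On the Sspn side they were 14.5 ± 2.2 in WTAkita and 15.98 ± 1.2 in Ctrl inside, and 3.497 ± 0.54 in WTAkita and 3.399 ± 0.60 in Ctrl outside.

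The E-box CACGTG occurred within 100 bp of the summit at 4 of the 80 sites (5.0%), against 4.24% of all sites called in 7 libraries. The 4 were the promoter sites of Sumf1 and Bhlhe40, the site downstream of Bhlhe41 and a site 1128 bp upstream of Bhlhe41. The last of these had 6.0 ± 0.19 in WTAkita and 6.13 ± 0.32 in Ctrl. In the RefSeq promoter table, 7.15% of 32851 promoters held this E-box. RUNX matches were found at 26 sites (32.5%, against 24.3% of all), ETS matches at 17 (21.2%, against 20.01%), GATA matches at 2 (2.5%, against 7.83%), AP-1 matches at 4 (5.0%, against 8.12%) and C/EBP matches at 2 (2.5%, against 1.58%).

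Promoters of related genes were read in the same way. In the bHLH-Orange family, whose HES and HEY members are repressors downstream of Notch, 7 of 12 genes had a promoter site in all 7 libraries, and 0 were called at an adjusted or an unadjusted p under 0.05. The median difference was 0.11, against 0.03 for all 14290 protein-coding promoters, and Hes2 (0.16 ± 0.18, SE) and Heyl (0.14 ± 0.15) were farthest above 0, with Hey1 (-0.02 ± 0.13) the 1 below. Among genes of calcium signalling through the IP3 receptor, 31 of 32 had such a site, and 0 passed the adjusted threshold. At the unadjusted one 0 stood above Ctrl and 1 (3.23%) below, against 0.882% and 0.807% of the 13263 distinct sites of all these promoters. The 1 below was Atp2a1, a calcium pump of the sarcoplasmic reticulum, with a difference of -0.22 ± 0.10 (SE). The median of the list was 0.01, and Atp2a2 and Erlin1 were highest, at 0.13 ± 0.09 and 0.12 ± 0.11. Of the partners of BHLHE40 and BHLHE41 in the clock loop, 15 of 19 had a site, 0 were called by either rule, and the median was 0.04. Csnk1e, which encodes a casein kinase of the loop, had 0.23 ± 0.17 (SE), and Arntl, the gene of the clock activator BMAL1, was lowest at -0.02 ± 0.09.

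Among 14290 protein-coding promoters, those whose normalized values ran most like the Itpr1 promoter over the 7 libraries were Gucy1a1 (Pearson r = 0.996), B3gntl1 (0.993) and Cytip (0.992). For Bhlhe40 they were Psmb4 (0.996), Lamtor2 (0.992) and BC028528 (0.991), and for Bhlhe41, over 6 libraries, Epn2 (0.984), Wnt6 (0.983) and Dicer1 (0.977). With so few libraries and so many promoters, high values arise in any such list, and they are a description of these libraries.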

How the data were processed

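ATAC-Seq peaks of LSK cells were read from 4 WTAkita and 3 Ctrl libraries. Per the labels and the study's methods, the authors used cutadapt 1.9.1 under Trim Galore 0.4.2 for trimming, Bowtie2 2.3.4.1 for alignment to mm10 and MACS2 for peaks of single libraries (version 2.1.4 by the submitters' processing notes, while the study's methods name another version), without a control library and with reads extended to 150 bp. The deposited fold enrichment is a ratio to local background within a library, with no scaling across libraries. Depth raises the deposited −log10 values of p and q, and the deposited score was left aside. The deposited summit offset gave the summit position.

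Lines with equal start and end counted once, by their strongest summit. Summits were matched within 150 bp. The summit pileup was solved from fold enrichment and p, and was whole (within 0.02) at 100.0% of peaks. Tags were estimated from the commonest background value, an effective genome of 1870000000 bp and the extension, so depth is an estimate. Log2 fold enrichment of 101457 sites called in all 7 libraries was quantile-normalized and fitted with limma 3.58.1 (trend) in R 4.3.3, adjusted over all sites, with no replicate block. Other steps used scipy 1.17.1, pandas 2.3.3 and numpy 2.4.6 under Python 3.11.15. Matching, the pileup and the fit were tested on simulated data. The genes, lists and rules were chosen with earlier results of these data known. Sites named were promoters, the 5 strongest and 3 largest differences per direction and window, and those where groups do not overlap. Alternatives covered matching distance, a q threshold, lines, normalization, sites missing in up to 2 libraries, a covariate, a replicate block, leaving out each library in turn and, after seeing the data, summit pileup and the strongest summit near a start. Other assays of the study were not used here.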

Additional observations from a re-analysis of the deposited data

Results flagged for a closer look

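Of the 37 named sites, 2 had a WTAkita library whose gap to the nearest other one, over the range of the 4, exceeded Dixon's 95% critical value. Chance flags about 1 in 20 such groups. At a site between Itpr1 and Bhlhe40 (summit at chr6:108571371), WTAkita replicate 3 had a fold enrichment of 15.6 beside 13.95, 14.05 and 14.2 in the other WTAkita libraries, against 13.2, 13.8 and 14.9 in Ctrl. In an intron of 0610040F04Rik (summit at chr6:108625056), WTAkita replicate 3 had 5.89 beside 3.63, 3.80 and 3.92 in the others, against 3.93, 4.84 and 3.24 in Ctrl. Ctrl, with 3 libraries, was not checked in this way.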

How the results depend on the processing

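The difference at the Itpr1 intron site stayed above 0 under all 17 alternatives and was 0.49 to 0.66 with a library left out. The site was picked for this difference and the alternatives reuse the same libraries, so nothing is read from its sign. The count of sites called over the genome was 0, 7 with quantile-normalized summit pileup, 11 with the replicate block, and 0 to 7 with a library left out (7 without WTAkita replicate 4), and 0 sites of the 3 genes were called under any of them. The replicate block raised the sites of the 3 genes at an unadjusted p under 0.05 to 7 (8.75%), against 3 (3.75%), while that count over all sites was 6308 (6.22%), against 3883 (3.83%), and the difference at the Itpr1 intron site was 0.49 with it. The labels do not say that replicate numbers pair libraries. The correlations of same-numbered libraries were 0.21, 0.03 and 0.06, against -0.18 to 0.10 for libraries of unlike number. The 0.21 of replicate 1 was the highest of these. The median difference of the sites was -0.11 by depth-scaled summit pileup, on which the median of all sites was -0.12, and -0.01 to 0.04 with a library left out. Windows of 20 kb held 94 sites. With each summit line kept, the closest site to a Bhlhe40 start had a value in 1 library, with log2 ratios of 0.60 over Bhlhe41 and -1.79 over Itpr1 and no usable test. With the closest site of at least 5 libraries, chosen after seeing the data, they were -0.69 and -3.22 in 5 libraries. The other pair changed neither direction nor side of the threshold there. With a library left out, the ratios were 1.29 to 1.38 for Bhlhe40 over Bhlhe41, -1.18 to -1.15 for Bhlhe40 over Itpr1 and 2.46 to 2.54 for Itpr1 over Bhlhe41, and the adjusted p was 0.0625, except without Ctrl replicate 3 (0.03125), since 5 libraries allow no smaller p for the pairs with Bhlhe41. Of 592 values of 35 other named sites under the alternatives, 54 had the opposite sign to the main one. The median of the calcium list was -0.04 with the median fold enrichment as a covariate, -0.03 by quantile-normalized summit pileup, -0.16 by depth-scaled summit pileup and -0.03 without WTAkita replicate 1.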
